A study of Homo sapiens with 6 samples.

Results

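Open chromatin was described around 8 genes of the AP-1 family in H1155 cells, a human lung carcinoma cell line profiled by ATAC-seq, in which a transposase cuts and tags accessible DNA. The genes were JUN, JUNB, JUND, FOS, FOSB, FOSL1, FOSL2 and ATF3, and each was taken with 50 kb on either side of its span. Peaks that overlapped these 8 windows, 903 kb in all, merged into 150 regions of the 149765 in the whole data set. The windows were set by position on hg19 and not by any measured value. Per the labels, the control group was 3 biological replicates of control H1155 cells, and the second group was 3 replicates of H1155 cells expressing a chimera, titled TA. All 6 libraries were made with the Omni-ATAC protocol. The labels do not state what the chimera joins, what drives it, or whether the cells were a clone or a pool.

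AP-1 is a transcription factor made of pairs of basic leucine zipper proteins. JUN, JUNB and JUND can pair with themselves or with a FOS protein, FOS proteins need a JUN partner to bind DNA, and ATF3 is a stress-induced family member that often acts as a repressor. The pairs bind the AP-1 site or the closely related cyclic AMP response element (CRE). JUN and FOS are classical immediate early genes, and in epithelial tissue AP-1 genes are known for their part in growth, wound and stress responses. At many regulatory elements AP-1 is found beside other factors, TEAD proteins among them.

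The start of each gene was read from its window, which is rounded to 1 kb. The processing notes name GRCh38, but peaks on chromosome 1 ran to position 249239990, past the end of that chromosome in GRCh38 and within it in hg19. A peak in all 6 libraries lay within 1 kb of the hg19 start for 6 of the 8 genes, and within 1 kb of the GRCh38 start for 3. Positions below are therefore on hg19. The sequences shown next came from RefSeq on GRCh38.p14, matched by gene symbol, so their coordinates cannot be set beside the peaks.

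The 250 bases before the start are shown for the 3 genes that hold a CRE or CRE-like sequence of the form TGACNTCA there. In these the family's own binding letters stand in a family member's promoter. Other variants of the CRE were not searched, so the other genes may hold one. Of the 8 genes 7 were matched, with 8 entries, since ATF3 has 2. FOSL1 was not matched. Capitals mark TGACNTCA, which was searched on both strands.
JUN, chr1:58784048-58784297, minus strand: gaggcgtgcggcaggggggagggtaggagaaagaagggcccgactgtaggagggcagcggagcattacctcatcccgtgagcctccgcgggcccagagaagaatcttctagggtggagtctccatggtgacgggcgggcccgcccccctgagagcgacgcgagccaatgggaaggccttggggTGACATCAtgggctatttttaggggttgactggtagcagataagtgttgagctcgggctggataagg
JUND, chr19:18281623-18281872, minus strand: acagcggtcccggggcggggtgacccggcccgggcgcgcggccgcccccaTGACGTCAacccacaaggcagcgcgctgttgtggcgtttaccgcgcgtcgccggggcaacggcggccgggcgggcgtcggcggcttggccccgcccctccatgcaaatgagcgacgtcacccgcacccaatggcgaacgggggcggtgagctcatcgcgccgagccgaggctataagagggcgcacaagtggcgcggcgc
ATF3, first entry, chr1:212565157-212565406, plus strand: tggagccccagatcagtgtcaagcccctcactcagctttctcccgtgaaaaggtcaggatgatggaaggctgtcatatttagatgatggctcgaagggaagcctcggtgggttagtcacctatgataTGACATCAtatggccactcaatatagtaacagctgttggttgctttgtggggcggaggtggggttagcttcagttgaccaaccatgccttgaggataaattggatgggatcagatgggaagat

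JUN and ATF3 carried the same 8 letters, TGACATCA, from 67 to 60 bases before the start in JUN and from 123 to 116 bases before it in ATF3. JUND carried the palindrome TGACGTCA from 200 to 193 bases before its start. TGACNTCA occurred in 3 of the 8 entries and in 6.87% of all 35116 RefSeq sequences of this length. The pattern TGANTCA, which takes in the AP-1 site but allows any base at its centre, is 1 base shorter and is not contained in TGACNTCA. It occurred in none of the 8 and in 6.57% of all. A TATAAA was found in 4 entries, those of FOS, FOSB and JUNB within 33 bases of the start and that of the second ATF3 entry farther away, against 10.7% of all. GGAATG, the core of the TEAD motif, and the CArG box of serum response factor were found in none of the 8, against 11.9% and 1.16% of all. All motifs were searched on both strands, and a match is a description of letters, not of a bound site.

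The libraries held 85730 to 109321 peaks on chromosomes 1 to 22 and X. Control 2 had the fewest and control 3 the most. The background pileup of a library, recovered from its fold and p-values and taken to stand in for depth, ran from 2.53 to 3.05 in control and from 2.74 to 3.77 in TA libraries. Peaks were called in each library alone, so the absence of a call means a signal below that library's threshold, not an absent signal. The labels call the replicates biological without saying that they were separate cultures, so the tests measure the spread between these libraries. The cell line's identity was not checked against marker genes here.

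Each of the 6 libraries had a peak at or within 1 kb of the start of JUN, JUNB, JUND, FOS, FOSL1 and FOSL2. At FOSB 4 libraries and at ATF3 2 libraries had one. The ATF3 start used is the outer edge of its span, and other ATF3 promoters were not placed. Of the 150 regions, 78 (52%) were called in all 6 libraries, where the share over all regions was 37.8%. No region was called in every TA and no control library, where 0.621% of all regions were, and none in every control and no TA library, where 0.799% were. Regions with calls in more control than TA libraries numbered 35 (23.3%, against 27.2% of all regions), and those with calls in more TA than control libraries 31 (20.7%, against 26.2%). The counts changed when a library was left out, which also loosens the rule. Without TA 3, 2 regions were called in the TA libraries alone and 3 in the control libraries alone. Without control 3 these were 2 and 1, and without control 2 they were 0 and 3. The shares over all regions under the loosened rule are not given here, so these counts cannot be set beside them.

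The number of peaks in the 8 windows was 133, 117 and 125 in control libraries 1 to 3 and 114, 125 and 119 in TA libraries 1 to 3. The groups overlapped, and the means were 125.0 ± 8 for control and 119 ± 5.51 for TA (SD, n = 3 each; exact permutation test, two-sided, p = 0.5, where 0.1 is the smallest possible). These peaks made up 0.114% to 0.136% of each control list and 0.119% to 0.126% of each TA list.

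Single windows differed little between the groups. The JUN window had 10, 9 and 8 peaks in control and 7, 8 and 7 in TA libraries, and the JUNB window had 22, 20 and 23 in control and 19, 18 and 20 in TA. In both, the groups met at a single shared value (exact permutation p = 0.2 each). The FOSL2 window went the other way, with 15, 14 and 13 peaks in control and 15, 18 and 16 in TA (exact permutation p = 0.2). Peak numbers also depend on how a region is split into peaks. The mean length covered by peaks was 8.06 kb in control and 8.26 kb in TA for FOSL2. It was 9.61 and 9.48 kb for JUNB, and 4.1 and 3.4 kb for JUN. Over the 9 tests, 8 windows and their sum, no difference passed Benjamini-Hochberg adjustment, and with 3 libraries against 3 none could.

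**Figure D1:**
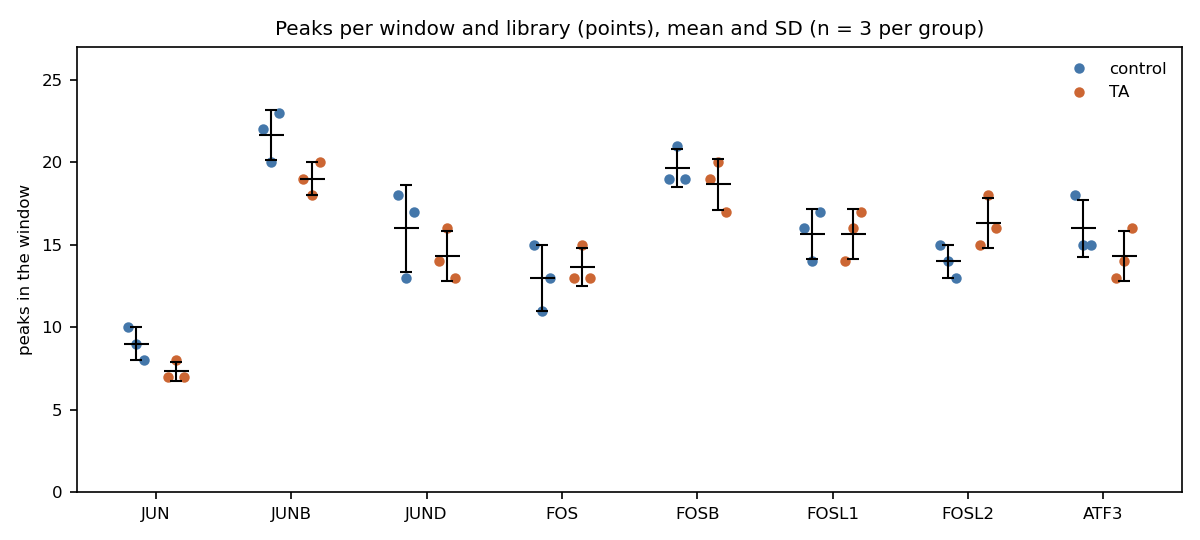
Number of deposited peaks in each of the 8 windows (vertical axis), with 1 point per library in blue for control and orange for TA, and the mean with SD in black (n = 3 per group). JUNB had the highest mean number of peaks, at 18 to 23 per library, FOSB had 17 to 21 and JUN the fewest, at 7 to 10, and control and TA libraries met or overlapped in each window.

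The windows differed more from each other than between groups. JUNB, with 24 regions in its window (23.5 per 100 kb), had the densest and JUN, with 11 (10.6 per 100 kb), the sparsest. In RefSeq, 8 other protein-coding genes lie within 50 kb of JUNB, 10 of FOSL1, 4 each of JUND and FOSB and 1 of ATF3, while JUN, FOS and FOSL2 have none. Regions in the flanks were not assigned to a gene. Gene spans held 18 of the 150 regions, and 11 of the 18 had a call in each of the 6 libraries. The other 132 lay in the flanks, 55 upstream and 77 downstream.

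**Figure D2:**
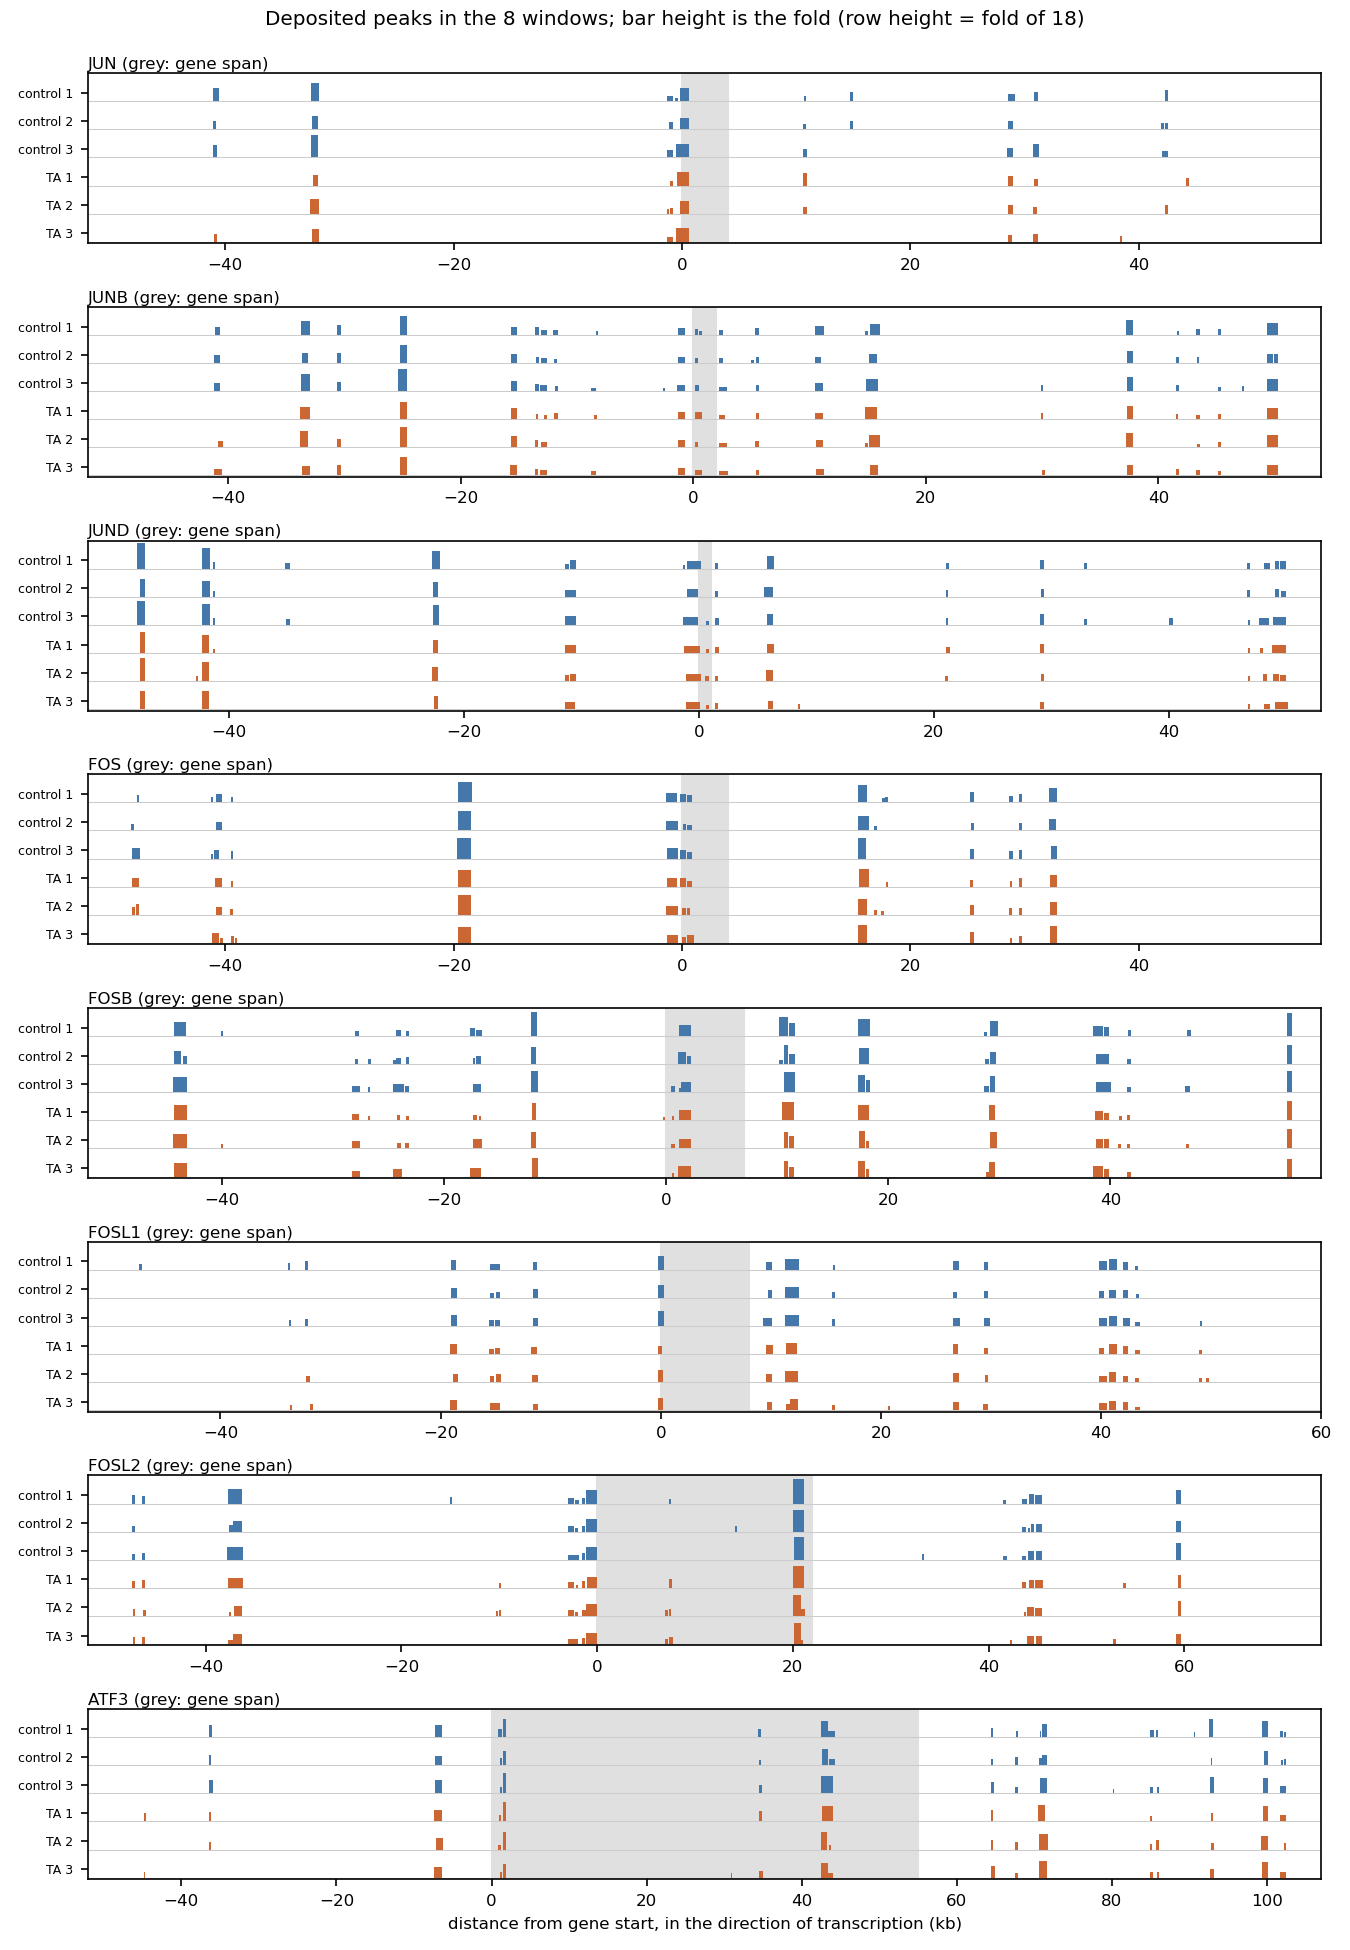
Deposited peaks around each gene, by distance from the gene start in the direction of transcription (kb), with 1 row per library and the gene span in grey. Bars are as wide as the peaks and as high as the fold, on a row height of 18. The named strong region of each window recurs in all 6 rows, while the JUN peak at -40.9 kb is in the control rows and TA 3.

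The fold given for each region is the deposited ratio of its strongest peak's summit pileup to that library's local background. It fits a form with a pseudocount, a small constant, added to both, so its size can vary with depth. That effect was not tested. Because the fold is relative to each library's own background, per-library values are given first. The comparison was made on log2 folds centred on each library's median over the 56679 regions called in all 6 libraries. Without centring the median difference over those regions was -0.083, against 0.025 with it. Differences below are centred log2 values, TA minus control, with the standard error, the 95% interval and the Benjamini-Hochberg adjusted p of limma over all 56679 regions.

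No AP-1 region passed the test for a difference in fold. Of the 78 regions called in all libraries, 0 were higher and 0 lower in TA at an adjusted p of 0.05, where limma called 0% of all regions in either direction. At an unadjusted p of 0.05, 5 were higher and 3 lower, which is 6.41% and 3.85% of the 78 against 5.49% and 5.58% of all regions. The median difference was 0.033 over the 78 regions and 0.025 over all. With the recovered summit pileup in place of the fold, limma called 210 regions higher and 137 lower of 56585 in the whole data set, and none of the 78. At so small a share, none of 78 does not set these windows apart. In simulated data of the same size, the fit recovered 95 of 100 regions changed by 1 log2 unit and 8 of 100 changed by 0.5. It made 2 false calls. The noise was independent and normal, with variances that limma had drawn toward a common value, so recovery in the real data may be lower. Under that setting a difference of 0.5 would mostly be missed with 3 libraries a group. The changed regions were drawn from the whole data set, where the median residual SD was 0.182 log2 units, against 0.154 for the window regions. The 95% interval lay within 1 log2 unit of 0 for 77 of the 78 regions.

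**Figure D3:**
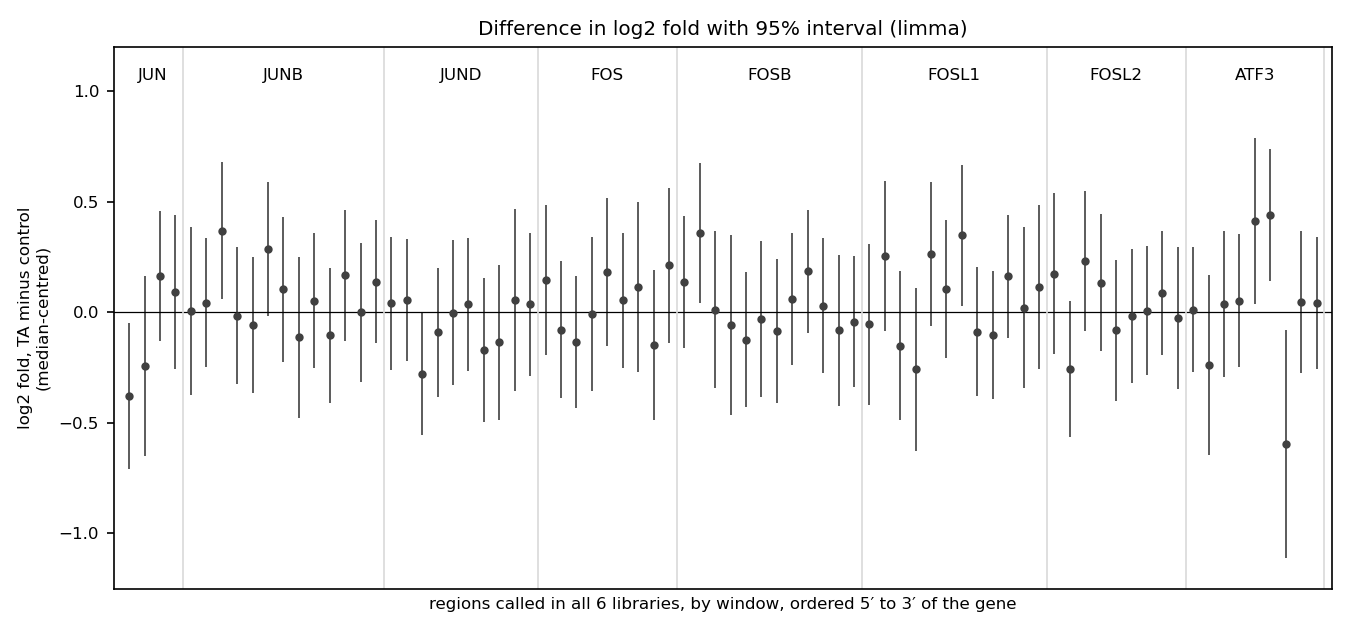
Difference in centred log2 fold, TA minus control (vertical axis), with its 95% interval from limma, for the 78 regions called in all 6 libraries, grouped by window and ordered along each gene. Points run from -0.60 to 0.44, and 1 interval, in the ATF3 window, reaches past -1.

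Among the JUN genes, JUN, the partner shared by most AP-1 pairs, had a region on chromosome 1 from 59249375 to 59250566 that covered its start and had the highest lowest-library fold of its window. Its fold was 8.81, 7.27 and 8.40 in control and 8.60, 8.17 and 8.58 in TA libraries. The region 32.1 kb upstream, described with the smallest p-values, had a higher fold in 4 of the 6 libraries. The TA values at the start lay inside the control range, and the difference was 0.16 ± 0.13 (SE, interval -0.13 to 0.46, limma adjusted p = 0.71).

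JUND, a JUN protein made in most resting cells, had a start region on chromosome 19 from 18391852 to 18393370, with folds of 4.86, 5.29 and 5.18 in control and 4.57, 4.76 and 4.88 in TA libraries. TA 3 lay above control 1, and the difference was -0.0014 ± 0.15 (interval -0.33 to 0.33). JUNB, which can restrain JUN activity, had a start region from 12902117 to 12902743 on the same chromosome, with lower folds of 3.99, 3.43 and 3.92 in control and 4.37, 3.49 and 3.50 in TA. The groups overlapped and the difference was 0.11 ± 0.15 (interval -0.22 to 0.43).

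Among the FOS genes, FOS, the classical immediate early member, had a region across its start on chromosome 14 from 75744849 to 75745368. Its folds were 5.55, 4.003 and 5.72 in control and 5.65, 4.49 and 3.96 in TA libraries, a difference of -0.006 ± 0.16 (interval -0.35 to 0.34). A neighbouring region inside the gene, from 75745425 to 75746056, had folds of 4.79, 3.22 and 4.44 in control and 3.75, 4.22 and 5.05 in TA. Both regions spread widely within each group.

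FOSL1, also called FRA1, is a FOS protein without the strong activation domain of FOS, and it had a start region on chromosome 11 from 65667703 to 65668286. Its folds were 8.86, 7.96 and 9.84 in control and 5.15, 7.77 and 8.11 in TA libraries. TA 1 was the low value, and TA 3 lay above control 2, so the groups overlapped. The difference was -0.26 ± 0.17 (interval -0.63 to 0.11, limma adjusted p = 0.62).

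FOSL2, or FRA2, a FOS protein of the same kind, had a region on chromosome 2 from 28614869 to 28615990, which ended within 10 bases of the start its window implies. Its folds were 8.47, 8.38 and 8.03 in control and 6.81, 7.83 and 7.20 in TA libraries. Every TA fold lay below every control fold, as in 10.1% of all regions called in all libraries. After centring the groups overlapped, and the difference was -0.08 ± 0.15 (interval -0.40 to 0.24). The region with the highest lowest-library fold in this window stood inside the gene from 28635984 to 28637216, with 15.7, 13.7 and 14.7 in control and 14.0, 13.2 and 13.3 in TA (difference -0.02 ± 0.14).

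FOSB, a FOS protein with a shorter splice form that lacks the activation domain, was the gene without a region called in all libraries within 1 kb of its start. The nearest region, on chromosome 19 from 45970757 to 45970956, was called in TA 1 alone, with a fold of 2.45. Farther into the gene, from 45972108 to 45973261, a region had folds of 7.27, 7.51 and 6.59 in control and 6.57, 6.20 and 6.62 in TA libraries (difference -0.03 ± 0.16, interval -0.38 to 0.32).

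ATF3, which is known to be transcribed from more than 1 promoter, had its nearest region 0.871 kb inside the gene, on chromosome 1 from 212739871 to 212740383, with a peak within 1 kb of the start in control 1 and TA 2 and farther inside in the others. Its folds were 5.17, 4.73 and 3.92 in control and 4.07, 3.16 and 3.63 in TA libraries, and TA 1 overlapped the control values (difference -0.24 ± 0.19, interval -0.64 to 0.17). A stronger region beside it, from 212740424 to 212740910, had 11.8, 9.40 and 13.01 in control and 12.4, 11.3 and 8.85 in TA. The highest by its lowest library was the 1786 bp wide region 42.8 kb from the start, from 212781539 to 212783324, with 10.6, 10.2 and 11.3 in control and 10.1, 11.6 and 9.32 in TA. In both regions the groups overlapped. The start used for ATF3 is the outer edge of its span. Its other promoters were not placed on hg19, so whether the strong region 42.8 kb inside lies at one was not determined.

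In the remaining windows the region with the highest lowest-library fold, the measure used here to pick 1 strong region a window, lay in the flanks. In the JUND window it was 47.4 kb upstream, from 18439135 to 18439823, with folds of 16.2, 11.1 and 15.5 in control and 13.7, 14.8 and 11.9 in TA libraries. In the JUNB window it was 25.0 kb upstream, from 12876618 to 12877409, with 12.1, 11.5 and 14.4 in control and 11.2, 13.3 and 11.8 in TA. The groups overlapped in both. In the FOS window it was 19.1 kb upstream, from 75725339 to 75726591, with 12.8, 12.6 and 13.1 in control and 10.96, 12.6 and 10.3 in TA. In the FOSB window it was 56.1 kb downstream, from 46026912 to 46027381, with 14.5, 12.2 and 13.6 in control and 12.7, 12.3 and 11.2 in TA. In the FOSL1 window it was 11.9 kb downstream, from 65655434 to 65656683, with 7.21, 7.11 and 6.99 in control and 6.85, 7.45 and 6.99 in TA. The FOSL1 start region had the higher fold in every library except TA 1. The differences of these 5 regions ran from -0.08 (FOS) to 0.11 (FOSL1), each smaller than its standard error.

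**Figure D4:**
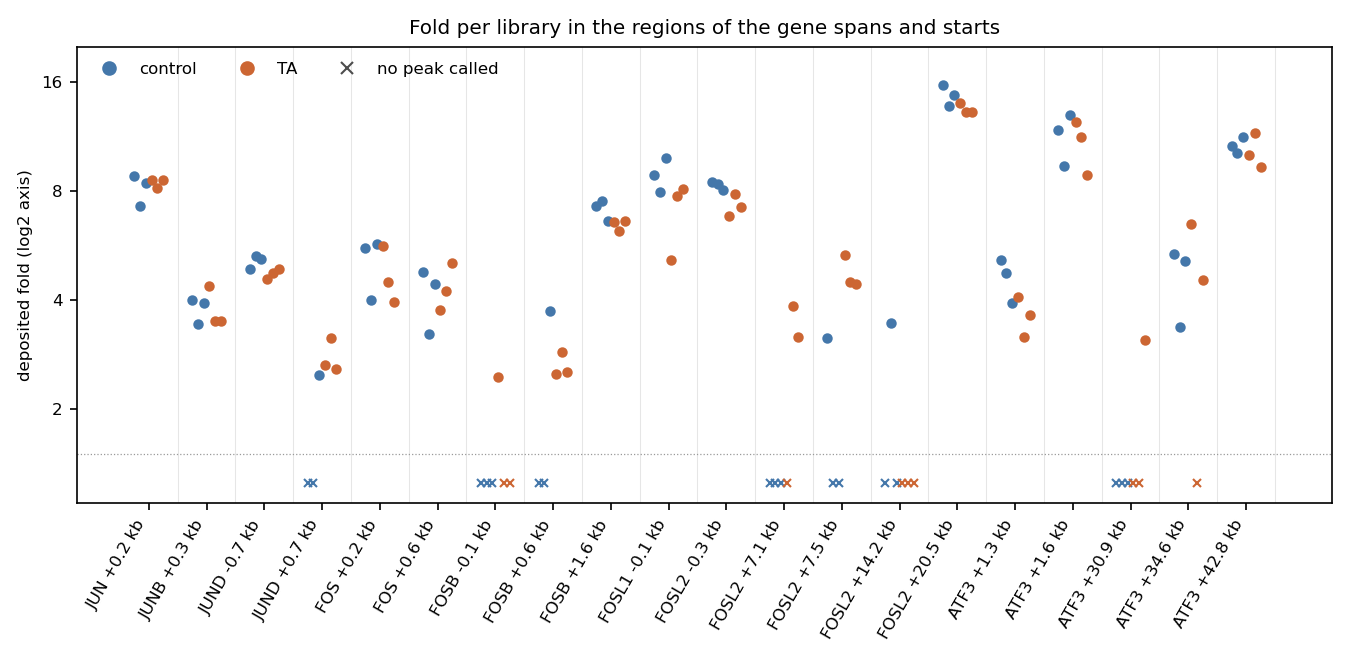
Deposited fold (log2 axis) in each library for the regions in the 8 gene spans and at the starts, named by gene and distance of the summit from the start, in blue for control and orange for TA. Crosses under the dotted line mark libraries with no peak called, and these fall on regions whose other libraries have folds of 2.45 to 6.50.

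Inside the gene spans, 3 regions were called in all TA libraries and in 1 control library. They were the only regions of the 150 with that pattern (2%, against 1.45% of all regions), and were singled out after their values were seen. In JUND the region from 18391158 to 18391455 had 2.64, 3.14 and 2.57 in TA libraries and 2.48 in control 3. In FOSB the region from 45971439 to 45971854 had 2.5, 2.86 and 2.53 in TA and 3.73 in control 3, the highest of the 4. In FOSL2 the region from 28623302 to 28623735 had 5.32, 4.49 and 4.43 in TA and 3.15 in control 1. Counted over the gene spans alone, TA libraries had 2.67 more peaks than control libraries on average (exact permutation p = 0.2), the opposite sign to the count over the windows. That count includes the peaks of the 3 regions above, so it is not separate from them.

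The mirror pattern, all control libraries and 1 TA library, was seen in 6 regions (4%, against 1.71% of all), and none of these was in a gene span. The JUN window held 2 of them. At 42.4 kb downstream, from 59207395, folds were 7.38, 4.2 and 4.22 in control and 5.45 in TA 2, and at 40.9 kb upstream, from 59290557, they were 8.21, 5.08 and 7.66 in control and 5.24 in TA 3. The others, in the JUNB, JUND, FOSB and FOSL1 windows, had control folds of 2.28 to 4.58. Regions missing from a single library numbered 8 where it was a control library (5.33%, against 4.11% of all) and 11 where it was a TA library (7.33%, against 3.63%).

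With calls in at least 2 libraries of one group and 0 of the other, a rule added after the data were seen, 4 regions were called toward TA (2.67%, against 2.78% of all) and 4 toward control (2.67%, against 3.85%). Those toward TA lay in the FOSL2 (2 regions), FOSB and ATF3 windows, with folds of 2.68 to 5.13. Those toward control lay in the JUND (2 regions), JUN and FOSL2 windows, with folds of 2.31 to 5.66. The highest of the latter was 14.8 kb downstream of the JUN start, from 59234978 to 59235252, with 5.66 in control 1 and 5.33 in control 2. Among the 19 window regions called in 5 libraries, the missing library was control 2 in 7 and TA 3 in 6. Control 2 had the fewest peaks of all lists, and TA 3 had the highest background pileup (3.77). The same split over the whole data set is not given here, so these counts are not shown to be particular to the windows. The part of depth in these patterns was not tested.

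The regions with the smallest unadjusted p are given as values, since none passed adjustment. In the ATF3 window, 71.2 kb from the start and past the gene, the region from 212809501 to 212810702 had folds of 8.68, 6.64 and 10.2 in control and 10.6, 10.1 and 10.9 in TA libraries. TA 2 lay below control 3 before centring, and every TA value lay above every control value after it (difference 0.44 ± 0.14, interval 0.14 to 0.74, limma adjusted p = 0.26). A region in the same flank, 92.8 kb from the start and from 212831548 to 212832196, had 11.7, 4.57 and 10.3 in control and 5.47, 4.28 and 5.45 in TA. Control 2 lay within the TA values, and the difference was -0.60 ± 0.24 (interval -1.11 to -0.08, limma adjusted p = 0.38), or -0.90 without control 2 and -0.38 without control 1.

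In the JUNB window, 15.5 kb upstream, the region from 12886293 to 12886843 had folds of 5.37, 5.64 and 6.27 in control and 6.94, 7.21 and 6.53 in TA libraries. Every TA fold lay above every control fold, before and after centring, as in 4 of the 78 regions before centring (5.13%, against 2.63% of all) and in 9 after it (11.5%, against 9.5%). The difference was 0.37 ± 0.14 (interval 0.06 to 0.68, limma adjusted p = 0.35). The region from 12900641 to 12901340, 1.1 kb before the JUNB start, had 4.23, 4.01 and 4.09 in control and 4.4, 4.86 and 4.68 in TA, also without overlap (difference 0.29 ± 0.14, limma adjusted p = 0.48). Its unadjusted limma p was not under 0.05.

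Toward lower folds in TA, the groups did not overlap in 6 of the 78 regions before centring (7.69%, against 10.1% of all) and in 3 after it (3.85%, against 6.99%). The JUN region from 59281769 to 59282554, 32.1 kb upstream, had 11.6, 8.82 and 14.4 in control and 6.76, 9.47 and 8.41 in TA libraries, with TA 2 above control 2 before centring and no overlap after it (difference -0.38 ± 0.15, limma adjusted p = 0.38). The JUND region from 18414075 to 18414701, 22.4 kb upstream, had 11.5, 9.69 and 12.4 in control and 8.20, 8.90 and 8.49 in TA, with no overlap. Its difference was -0.28 ± 0.13 (limma adjusted p = 0.44). On the recovered pileup that difference was -0.59 (limma adjusted p = 0.081), the lowest adjusted p of any of the window regions under any setting run, and pileups were 98, 75 and 122 in control and 60, 59 and 71 in TA. The 3 others with an unadjusted p under 0.05 were higher in mean centred fold in TA, by 0.41 (ATF3, from 212803384), 0.36 (FOSB, from 45942747) and 0.35 (FOSL1, from 65640846), with limma adjusted p of 0.40, 0.39 and 0.40.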

How the data were processed

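ATAC-seq peak lists of 6 libraries were used. Per the file names, the authors called peaks with MACS2 in each library. The deposited columns hold the fold (ratio of summit pileup to local background), −log10 p, −log10 q, a score, which was not used, and the summit position. The labels name no aligner, filter or MACS2 setting. HOMER 4.9 and GRCh38 appear in the submitters' processing notes, with no role given.

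Peaks on chromosomes 1 to 22 and X sharing at least 1 bp were merged, which left out 0.0168% of peaks. The strongest peak gave a region's fold. Summit pileup was recovered under a Poisson model to 0.005 in −log10 p for over 99.9% of peaks of each list. The recovery took the fold as a ratio with 1 added to both pileup and background. Folds were compared with limma 3.58.1 in R 4.3.3, with no pseudocount beyond that one, and counts with exact permutation tests in Python 3.11.15. The fit was tested on simulated data. All 8 genes are named, with the region at the start within 1 kb, the region with the highest lowest-of-6 fold, and those with group-specific calls or passing the fit. Regions with an unadjusted p under 0.05 were added. The members, motifs and lists were chosen with earlier results of these data known. Marker genes and other AP-1 genes could not be placed on hg19 and were not analysed here. Alternatives left out each library in turn, or changed thresholds, merging, flanks, list length, normalization and blocking.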

Additional observations from a re-analysis of the deposited data

How the results depend on the processing

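Regions called in the TA libraries alone numbered 0, or 1 when lists were trimmed to equal length or to a -log10 q of at least 5. The range was 0 to 2 with each library left out. Regions called in the control libraries alone numbered 0, and 0 to 3 with each library left out. Shares over all regions under these alternatives are not given here, so the counts cannot be read as above or below them. With at least 2 of 3 libraries against 0, added after seeing the data, both counts were 4. The difference in peaks, -5.67, ran from -9.67 to -1.67 with each library left out and was 2.67 over gene spans without flanks (exact permutation p = 0.2). Same-numbered libraries did not deviate together (r of -0.0055, -0.059 and -0.014), so the numbers were not taken as pairs. With the replicate block the difference stayed -5.67 (exact permutation p = 0.75, smallest possible 0.25) and the other counts stayed 0.

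Under the 14 fold settings run (each library left out, -log10 q of at least 5, merging within 1 kb, recovered pileup, a mean fold of at least 3, means over peaks, no centring, quantile normalization, replicate block) 0 AP-1 regions passed in limma. For 22 named regions these gave 307 values, of which 280 kept their sign and 27, all with limma adjusted p above 0.5, did not, and the cause was not tested. Without centring the log2 difference turned at ATF3 212781539 (-0.055), FOSL1 65655434 (-0.0026), JUNB 12876618 (-0.064) and 12902117 (-0.0025) and JUND 18439135 (-0.068). With means over peaks it turned at ATF3 212781539 (-0.0061), FOSL1 65655434 (-0.011) and JUND 18391852 (0.15). With recovered pileup it turned at FOS 75744849 (0.25), FOSB 46026912 (0.061) and JUND 18391852 (0.13). With a mean fold of at least 3, JUND 18391852 gave 0.0014, and with merging ATF3 212739871 gave 0.033. With each library left out, values spanned 0 at FOS 75725339 (-0.14 to 0.019) and 75744849 (-0.17 to 0.094), FOSL2 28614869 (-0.18 to 0.037) and 28635984 (-0.095 to 0.046), JUNB 12876618 (-0.025 to 0.088) and 12902117 (-0.023 to 0.20), and JUND 18391852 (-0.077 to 0.14) and 18439135 (-0.018 to 0.11). Depth enters through the calling threshold of each library and can enter through the pseudocount in the fold. Its part was not tested. A region without a call has no value.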
